A study of Mus musculus with 4 samples.

Results

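Enzymes of the creatine, adenylate and purine nucleotide system were followed in the quadriceps of mdm mice. The 10 genes were chosen by symbol, through the Entrez number in the probe set name, out of 15267 named genes on the array. They are Ckm, Ckb, Ckmt2, Gatm, Gamt, Slc6a8, Ak1, Ampd1, Ampd3 and Adss1 (listed under the older symbol Adssl1), and each was measured by 1 probe set. The data came from 4 Affymetrix arrays, 1 per mouse. The mdm mutant group was 2 mice labelled as titin mutant and the wild type group was 2 mice labelled as titin wild type, with B6C3Fe a/a-Ttnmdm/J given as strain for each. The sample titles carry Ttn+ for the mutant mice and Ttn- for the wild type mice, and the source and description labels tie these signs to mice with and without the mutation, as the genotype label does. That strain carries mdm (muscular dystrophy with myositis), a recessive mutation of titin, the giant elastic protein of the sarcomere. The labels give neither age nor sex, do not say whether mutants carried 1 or 2 mutant alleles, and do not say whether the mice were littermates. RNA came from whole quadriceps, so fewer cells of a type and less RNA per cell cannot be told apart.

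Muscle fibres buffer ATP with phosphocreatine. Creatine is made from guanidinoacetate, the product of Gatm, by the methyltransferase Gamt, mainly outside muscle, and enters fibres through the transporter Slc6a8. Mitochondrial creatine kinase (Ckmt2) charges it and cytosolic creatine kinase (Ckm, with the brain-type isoform Ckb) returns the phosphate to ADP. When ADP builds up, adenylate kinase (Ak1) makes ATP and AMP from it, and AMP deaminase (Ampd1 in adult muscle) turns AMP into IMP. Adenylosuccinate synthase (Adss1) and adenylosuccinate lyase (Adsl) rebuild AMP from IMP and release fumarate. The reactions of Ampd1, Adss1 and Adsl form the purine nucleotide cycle.

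Levels are log2 RMA values, so 1 unit is a 2-fold difference, and levels of different probe sets are not comparable with each other. A summed level of a marker list follows its brightest probe sets most and is compared only between mice. Differences are mdm mutant minus wild type ± the standard error from limma, and ± beside a mean is the SD, always over the 2 mice of a group. The p-values of limma were adjusted by Benjamini and Hochberg's method over the 16492 probe sets tested, and "rose" and "fell" are used only where the adjusted p was under 0.05. An exact permutation test of 2 against 2 mice cannot give a two-sided p below 0.333. The 9 measured markers of skeletal muscle, among them Acta1 and Myh4, read between 11.58 and 14.98, and 0 of 9 passed the test. Values in this table follow rank, and Acta1, Tnni2, Mylpf, Pvalb, Tnnt3 and Myh1 held the same rank near the top of every array or moved by 1, so a change that left those ranks in place would not appear. Wild type 1 stood apart from the other mice in slow fibre genes. The summed level of the 5 slow fibre markers was 13.64 and 12.87 in the mdm mutant mice, against 11.05 in wild type 1 and 13.86 in wild type 2. Of other cell types, 2 of 6 endothelial markers fell, and the differences of all 6 lay between −0.77 and −0.26. Their summed level was 11.11 and 10.83 in the mdm mutant mice, against 11.45 and 11.30 in the wild type mice. Of 5 fibroblast markers 1 rose, with differences between −0.19 and 0.42. The summed fibroblast level was 14.93 and 14.99 in the mdm mutant mice, against 14.75 and 14.71 in the wild type mice. Of 5 adipocyte markers 1 fell, the brown fat gene Ucp1 (−1.63 ± 0.37), while Adipoq, Cidec, Pparg and Lep stood between 0.31 and 0.93 without passing. The summed adipocyte level was 11.87 and 12.09 in the mdm mutant mice, against 11.82 in wild type 1 and 10.75 in wild type 2.

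Of the 10 enzymes, 3 rose (Ampd3, Gatm and Ckb), 2 fell (Ak1 and Ampd1) and 5 did not pass the test (Ckmt2, Adss1, Slc6a8, Gamt and Ckm). Over the whole array 12.8% of probe sets passed, 6.46% higher and 6.36% lower in mdm mutant muscle. Mutant and wild type values did not overlap for 8 of the 10 enzymes, against 60.9% of all probe sets. The median difference was −0.16 over the 10 enzymes and −0.02 over all probe sets. The calls rest on all 4 mice. Without mdm mutant 1, 1 rose (Ampd3) and 1 fell (Ckmt2). Without mdm mutant 2, 1 rose (Ampd3) and 1 fell (Adss1). Leaving out wild type 1, 2 rose (Ampd3 and Gatm) and 0 fell. Leaving out wild type 2, Ampd3 and Gatm rose, Gatm only just, and Ak1 fell. Ampd3 was the 1 enzyme called with any mouse left out.

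**Figure D1:**
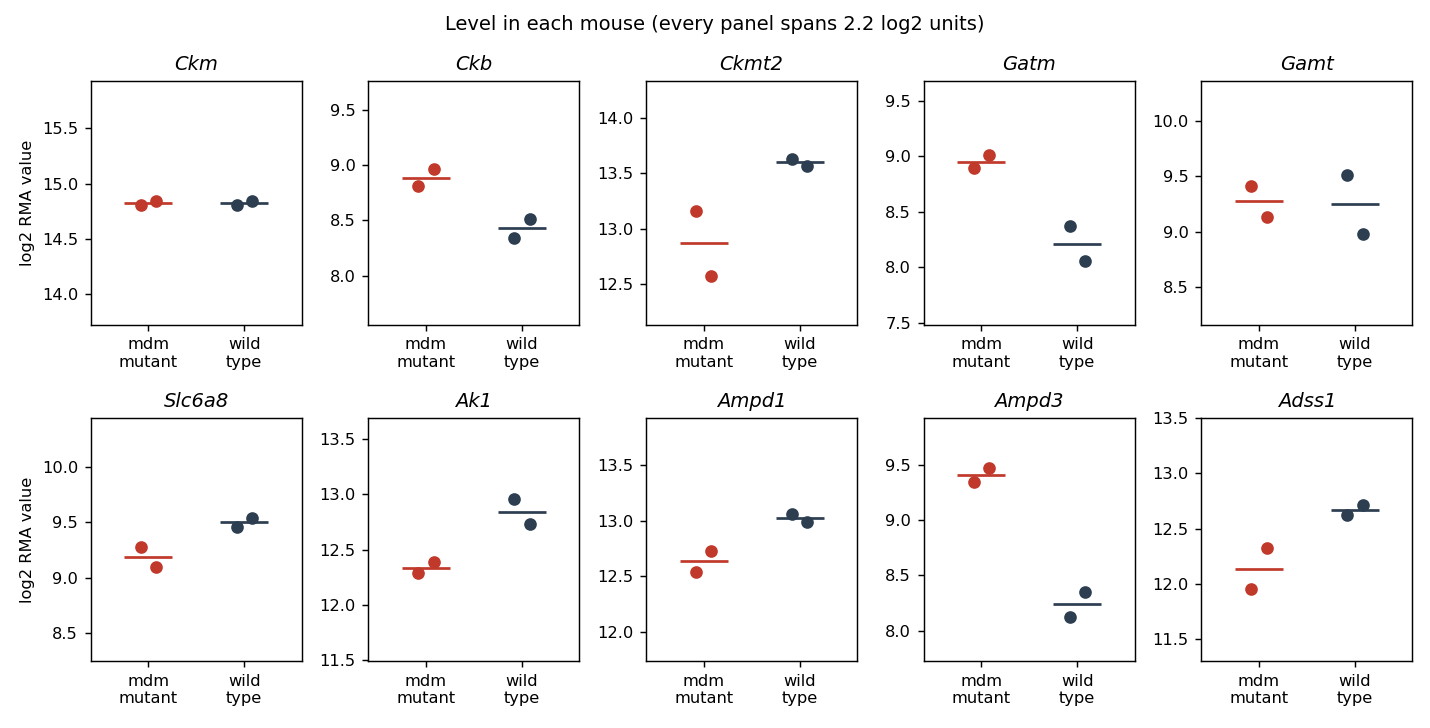
Level of each of the 10 enzymes in each mouse, on the log2 RMA scale. Points are mice, bars are group means, and every panel spans the same number of log2 units around its own centre. The points of the groups are far apart for Ampd3, with 9.35 and 9.47 in mdm mutant mice and 8.13 and 8.35 in wild type mice, and coincide for Ckm.

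The AMP deaminase genes moved in opposite directions. Ampd3, named the erythrocyte-type isoform and low in normal adult muscle fibres, read 9.35 and 9.47 in the mdm mutant mice, against 8.13 and 8.35 in the wild type mice. Both mdm mutant mice lay above both wild type mice, with a gap of 0.995 between the groups. The means were 9.41 ± 0.09 and 8.24 ± 0.16, a rise of 1.17 ± 0.09 or 2.25-fold (95% interval 0.94 to 1.40, adjusted p = 0.00576). It was the 1 member past the test with a difference of 2-fold or more upward, which 0.540% of all probe sets had. Without variance moderation, where each gene's spread rests on its own mice alone, the adjusted p was 0.191. It stayed under the threshold with trend and robust estimation of the variances (adjusted p = 0.00120). The same held with each array centred on its spiked-in hybridization controls (adjusted p = 0.00305). Median centring, repeated quantile normalization, the filter on dim probe sets and the mean over probe sets left the difference at 1.17. They are weak checks because they changed little. The difference of Ampd3 lay between 1.06 and 1.28 with 1 mouse left out.

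Ampd1, the isoform of adult muscle, read 12.54 and 12.73 in the mdm mutant mice, against 13.06 and 12.99 in the wild type mice. The groups did not overlap. The means were 12.64 ± 0.14 and 13.03 ± 0.05, a fall of 1.31-fold (−0.39 ± 0.08, 95% interval −0.59 to −0.19, adjusted p = 0.0374). This call did not hold with any mouse left out. Leaving out mdm mutant 1 or 2 gave an adjusted p of 0.0892 or 0.0508, and leaving out wild type 1 or 2 gave 0.145 or 0.115, within a range of 0.0361 to 0.267 over 11 alternatives. With each array centred on its spiked-in hybridization controls the difference was −0.28 (adjusted p = 0.0731). The call was also lost with trend and robust estimation of the variances (adjusted p = 0.0529). It held in 4 of 11 alternatives: median centring, repeated quantile normalization, the filter on dim probe sets and the mean over probe sets. All 4 used the same mice and left the difference at −0.39, which makes them weak checks. The third AMP deaminase gene, Ampd2, the widely expressed liver-type isoform, read 8.39 and 8.43 in the mdm mutant mice, against 8.05 and 7.98 in the wild type mice. It rose by 0.40 ± 0.05 (adjusted p = 0.0158), and the call held in 1 of the 4 settings with a mouse left out, the one without mdm mutant 1.

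Taking the log2 ratio of 2 isoforms within each mouse, Ampd3 over Ampd1 was −3.19 and −3.26 in the mdm mutant mice, against −4.94 and −4.64 in the wild type mice. The ratio was higher in both mutants, by 1.56. For Ampd2 over Ampd1 the ratio was higher by 0.79. These and the 3 ratios given further on make 5 pairs, chosen after the values were seen. In each of the 5 pairs the groups did not overlap. Except for Adss2 over Adss1 this was fixed in advance, because both genes already differed without overlap in opposite directions. Of single probe sets 60.9% did not overlap, which is no background for such ratios. The exact permutation p of each pair was 0.333, two-sided, raw and adjusted, the smallest that 6 splits allow.

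Markers of denervated muscle, macrophages and red cell precursors were read in the same mice as Ampd3. Of 7 measured denervation markers 5 rose (Myog, Chrna1, Chrng, Gadd45a and Runx1), while the ubiquitin ligases of atrophy, Trim63 and Fbxo32, stood at 0.05 ± 0.15 and −0.40 ± 0.32. Of 9 macrophage markers 5 rose, and their summed level was 12.73 and 13.16 in the mdm mutant mice, against 11.87 and 11.78 in the wild type mice. Of 3 erythroid markers 1 rose, Alas2. Slc4a1 did not pass (1.07 ± 0.30, adjusted p = 0.0765), and Epb42 did not pass and its groups overlapped. The summed erythroid level was 9.44 and 9.44 in mdm mutant mice, against 8.59 and 8.54 in wild type mice. Globin genes were not among the rows used here, so that defining red cell product was not analysed here. No list had a member at 0, since RMA values have no zero. The part of these cells in the level of Ampd3 was not tested.

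RefSeq gives 3 promoter windows for Ampd3 (assembly GRCm38.p6), and the probe set does not say which start the transcripts used. Each window runs from 250 bases before to 50 bases after an annotated start. In all, 13 windows of 8 of the 10 genes were found among 32851 windows. They were searched on both strands for the E-box CANNTG, its form CAGCTG that muscle regulatory factors can bind, the M-CAT element CATTCC, the MEF2 site and the CArG box bound by serum response factor. Of all windows, 72.3% held the first, 16.3% the second, 14.7% the M-CAT element, 3.19% a MEF2 match and 1.63% a CArG match. The Ampd3 windows held 1, 3 and 0 E-boxes. The window printed here, chr7:110773386-110773685 on the + strand, is shown because it holds the 1 CArG match among the enzymes, in capitals, which starts at position −112 from the start.
Ampd3 window 3: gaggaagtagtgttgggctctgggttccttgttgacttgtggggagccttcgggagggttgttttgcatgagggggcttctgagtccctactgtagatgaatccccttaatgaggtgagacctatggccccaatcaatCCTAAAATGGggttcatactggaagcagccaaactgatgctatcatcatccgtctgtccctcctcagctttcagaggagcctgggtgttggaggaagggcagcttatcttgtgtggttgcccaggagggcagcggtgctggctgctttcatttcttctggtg
A match is a stretch of letters and does not show that a factor binds there.

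The remaining enzymes of the purine nucleotide cycle read lower in mdm mutant muscle. Adss1, the muscle adenylosuccinate synthase, read 11.95 and 12.32 in the mdm mutant mice, against 12.62 and 12.71 in the wild type mice. Both mutants lay below both wild type mice, and mdm mutant 1 lay furthest down. The means were 12.14 ± 0.26 and 12.66 ± 0.06, and the difference of −0.53 ± 0.13 did not pass (95% interval −0.85 to −0.21, adjusted p = 0.0551). It passed without mdm mutant 2 (−0.71, adjusted p = 0.0310), with trend and robust estimation of the variances (adjusted p = 0.0454) and without the dimmer probe sets (adjusted p = 0.0492), in a range of 0.0310 to 0.324 over 11 alternatives. Its widely expressed paralog Adss2 read 8.60 and 8.58 in mdm mutant mice, against 8.60 and 8.49 in wild type mice, with overlapping groups and a difference of 0.04 ± 0.06 (95% interval −0.11 to 0.19, adjusted p = 0.669). The within-mouse ratio of Adss2 over Adss1 was higher by 0.57 in the mutants. Adsl, which completes the cycle, read 9.94 and 10.05 in mdm mutant mice, against 10.41 and 10.51 in wild type mice. It fell by 0.47 on the log2 scale (−0.47 ± 0.07, adjusted p = 0.0167), a call that held with none of the 4 mice left out, where the difference lay between −0.52 and −0.42.

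Of the adenylate kinases, Ak1 and Ak3 fell. Ak1, the cytosolic isoform and the main one of muscle, read 12.29 and 12.39 in the mdm mutant mice, against 12.95 and 12.73 in the wild type mice. The groups did not overlap, with a gap of 0.34. The means were 12.34 ± 0.07 and 12.84 ± 0.16, a fall of 1.42-fold (−0.50 ± 0.09, 95% interval −0.73 to −0.28, adjusted p = 0.0264). The call held without wild type 2 (−0.62) and was lost when mdm mutant 1 or 2 was left out (adjusted p = 0.0913 and 0.0838) or wild type 1 was (0.0806, in a range of 0.0262 to 0.254 over 11 alternatives). Without wild type 1, the mouse low in slow fibre markers and highest in Ak1, the difference of Ak1 was −0.39. The part of fibre makeup in the level of Ak1 was not tested. Ak3, the mitochondrial matrix enzyme that uses GTP, read 8.39 and 8.50 in mdm mutant mice, against 9.09 and 9.08 in wild type mice. It fell by 0.64 on the log2 scale (−0.64 ± 0.06, adjusted p = 0.00770), and its call held with any mouse left out. The other isozymes measured, Ak4, Ak5, Ak7 and Ak8, did not pass, with differences between −0.11 and −0.05.

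Ak1 has 4 RefSeq windows. The second, chr2:32625187-32625486 on the + strand, is printed because it holds both a CAGCTG E-box and the MEF2 match, in capitals. The MEF2 match starts at position 21 after the annotated start and contains TATAAA, the letters of a TATA box.
Ak1 window 2: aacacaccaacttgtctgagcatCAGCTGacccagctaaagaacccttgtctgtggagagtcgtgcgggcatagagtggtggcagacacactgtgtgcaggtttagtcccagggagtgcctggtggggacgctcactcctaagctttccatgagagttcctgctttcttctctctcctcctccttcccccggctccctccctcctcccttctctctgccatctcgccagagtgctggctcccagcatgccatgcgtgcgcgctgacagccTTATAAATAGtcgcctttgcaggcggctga
The first window of Ak1 also held a CAGCTG, and the third and the last did not.

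Of the creatine kinases, Ckb rose and Ckm, Ckmt2 and Ckmt1 did not pass the test. Ckb, the brain-type cytosolic isoform, which is also made in smooth muscle and in immature muscle cells, read 8.81 and 8.96 in the mdm mutant mice, against 8.34 and 8.52 in the wild type mice. The groups did not overlap, with a gap of 0.30. The means were 8.89 ± 0.11 and 8.43 ± 0.12, a rise of 0.46 ± 0.09 or 1.37-fold (95% interval 0.24 to 0.67, adjusted p = 0.0306). The call was lost with each of the 4 mice left out in turn. Leaving out mdm mutant 1 or 2 gave an adjusted p of 0.0521 or 0.120, and leaving out wild type 1 or 2 gave 0.111 or 0.0658, in a range of 0.0139 to 0.260 over 11 alternatives, while the difference stayed between 0.37 and 0.54.

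Markers of immature muscle rose in the same mice: 6 of 6 embryonic and regeneration markers passed the test, from Chrng at 1.03 ± 0.06 to the embryonic myosin Myh3 at 4.59 ± 0.16. Myog and Chrng are also on the denervation list, so the lists are not independent. The summed level of the 6 was 13.61 and 13.43 in the mdm mutant mice, against 10.27 and 10.31 in the wild type mice. Of 6 smooth muscle markers, Des, which striated fibres also make, rose by 0.44 ± 0.08 and Cnn1 fell (−0.24 ± 0.05). The other 4 did not pass: smooth muscle actin Acta2 stood at 0.44 ± 0.13, with both mutants above both wild type mice, and Tagln, Myh11 and Smtn stood at −0.09, −0.22 and −0.37. The summed smooth muscle level was 13.47 and 13.60 in the mdm mutant mice, against 13.24 and 13.14 in the wild type mice. Des weighs most in this sum, with 12.83 and 13.05 in mdm mutant mice against 12.50 and 12.50 in wild type mice. The sum therefore does not stand for smooth muscle alone. Of 4 Schwann cell markers 0 passed, with differences between −0.09 and 0.14. The part of these cells in the level of Ckb was not tested.

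Ckm, the cytosolic creatine kinase of muscle fibres, read 14.81 and 14.85 in the mdm mutant mice, against 14.81 and 14.85 in the wild type mice. The values were the same in both groups because the table assigns a value by rank. Counted from the top of each array, Ckm held rank 3 and rank 2 in the mdm mutant mice, against rank 3 and rank 2 in the wild type mice, and traded these ranks with the myosin light chain Mylpf. Its difference was 0.00 ± 0.05 (95% interval −0.13 to 0.13, adjusted p = 1.0). A change of Ckm that left its rank in place would not appear in these values, so the interval does not bound such a change.

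Ckmt2, the creatine kinase of the mitochondria of striated muscle, read 13.16 and 12.58 in the mdm mutant mice, against 13.63 and 13.57 in the wild type mice. Both mutants lay below both wild type mice and differed from each other by more than the wild type mice did. The means were 12.87 ± 0.42 and 13.60 ± 0.04, and the difference of −0.73 ± 0.19 did not pass (95% interval −1.20 to −0.26, adjusted p = 0.0630). The size depended on the mutant left out. Without mdm mutant 1 the difference was −1.02 (adjusted p = 0.0144), and without mdm mutant 2 it was −0.44 (adjusted p = 0.0576), in a range of 0.0144 to 0.347 over 11 alternatives. Without wild type 1, the mouse low in slow fibre markers, it was −0.70. The widely expressed mitochondrial isoform Ckmt1 read 6.58 and 6.59 in mdm mutant mice, against 6.73 and 6.73 in wild type mice, with a difference of −0.14 ± 0.05 that did not pass (adjusted p = 0.120). The within-mouse ratio of Ckb over Ckmt2 was higher by 1.19 in the mutants.

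The RefSeq windows of the cytosolic isoforms are printed to show how they differ. That of Ckm, chr7:19410844-19411143 on the + strand, held 1 CAGCTG E-box at position −249 and no exact match to the other motifs. Near matches were not searched for in any window, so a variant site would not be counted. That of Ckb, chr12:111672289-111672588 on the - strand, held no E-box, a CATTCC match read on the opposite strand at position −41 and a MEF2 match at position −29 that contains TATAAA. Matches are in capitals.
Ckm window: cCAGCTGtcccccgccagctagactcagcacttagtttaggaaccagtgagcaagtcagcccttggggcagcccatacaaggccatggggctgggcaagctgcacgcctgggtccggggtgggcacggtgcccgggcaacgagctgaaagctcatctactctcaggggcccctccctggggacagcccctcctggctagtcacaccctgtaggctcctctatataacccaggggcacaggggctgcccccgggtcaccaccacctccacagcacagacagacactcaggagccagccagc
Ckb window: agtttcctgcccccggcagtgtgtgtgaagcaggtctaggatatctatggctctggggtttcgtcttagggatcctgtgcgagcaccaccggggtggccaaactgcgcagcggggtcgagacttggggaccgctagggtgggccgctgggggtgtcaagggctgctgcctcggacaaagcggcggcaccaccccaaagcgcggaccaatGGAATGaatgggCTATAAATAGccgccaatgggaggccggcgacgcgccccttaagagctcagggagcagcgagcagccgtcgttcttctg
The Ckmt2 window held 4 E-boxes, 1 of them CAGCTG, and no MEF2, CArG or M-CAT match.

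**Figure D2:**
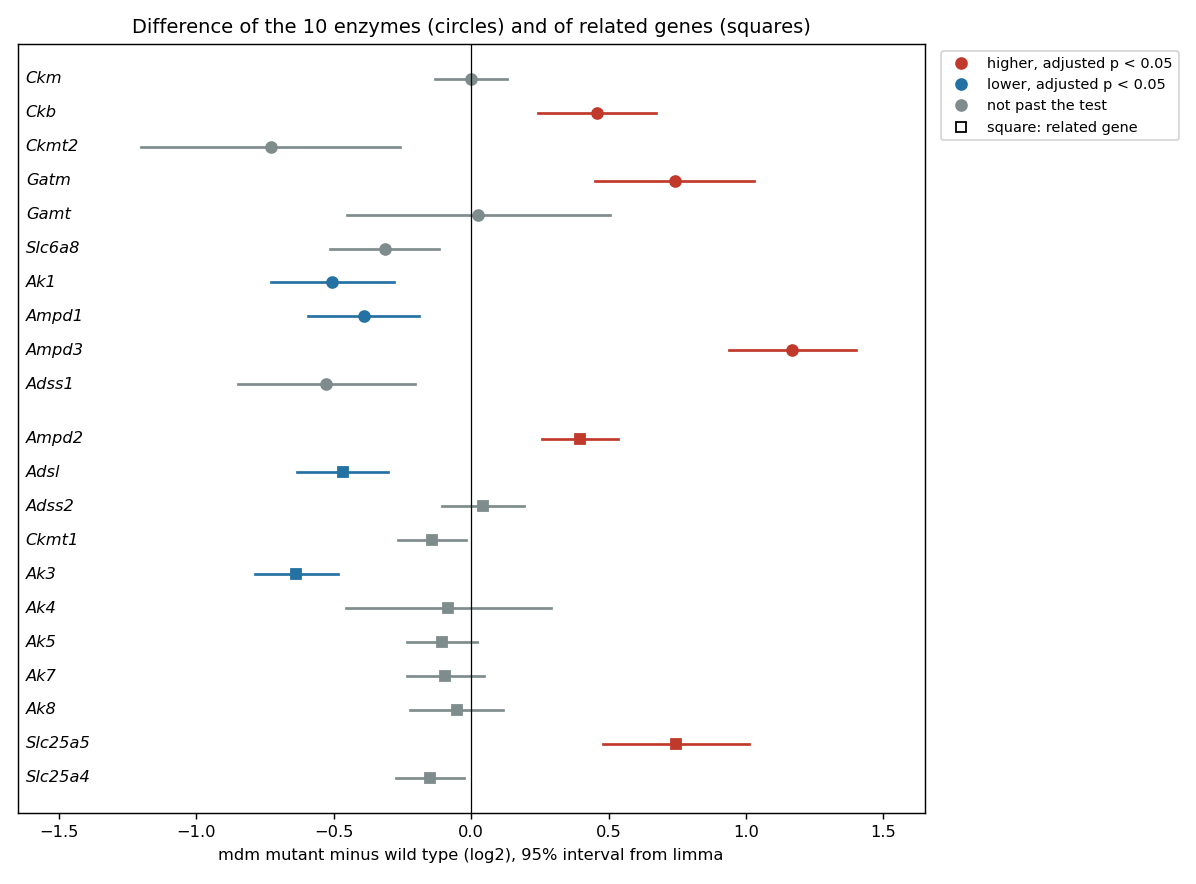
Difference between mdm mutant and wild type (log2, x axis) of the 10 enzymes (circles) and of 11 related genes (squares), with the 95% interval from limma. Colours mark a pass in either direction at an adjusted p under 0.05. Ampd3 lies furthest right at 1.17, and Ckmt2 at −0.73 has the longest interval among the enzymes that lie left of 0.

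Of the genes that supply creatine, Gatm rose. Gatm makes guanidinoacetate, the precursor of creatine, and is known mostly from kidney and pancreas. Its level was 8.89 and 9.01 in the mdm mutant mice, against 8.37 and 8.05 in the wild type mice, with no overlap and a gap of 0.52. The means were 8.95 ± 0.08 and 8.21 ± 0.22, a rise of 0.74 ± 0.11 or 1.67-fold (95% interval 0.45 to 1.03, adjusted p = 0.0205). The call held without wild type 1 (0.90) and held only just, at the threshold, without wild type 2 (0.58). It was lost without mdm mutant 1 (0.80) or mdm mutant 2 (0.68). The adjusted p of Gatm ranged from 0.0106 to 0.250 over 11 alternatives. Its window held 1 E-box.

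Gamt, the enzyme after Gatm, read 9.41 and 9.13 in the mdm mutant mice, against 9.51 and 8.98 in the wild type mice. The groups overlapped, and wild type 1 and wild type 2 held the highest and the lowest value. The difference was 0.03 ± 0.19 (95% interval −0.45 to 0.50, adjusted p = 0.943), and the interval leaves changes of either sign within those bounds possible. Slc6a8, the creatine transporter of the plasma membrane, read 9.28 and 9.10 in the mdm mutant mice, against 9.46 and 9.54 in the wild type mice. Both mutants lay below both wild type mice. The means were 9.19 ± 0.13 and 9.50 ± 0.06, and the difference of −0.31 ± 0.08 did not pass (95% interval −0.51 to −0.12, adjusted p = 0.0595), nor did it pass under any of 11 alternatives, with an adjusted p between 0.0519 and 0.300.

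**Figure D3:**
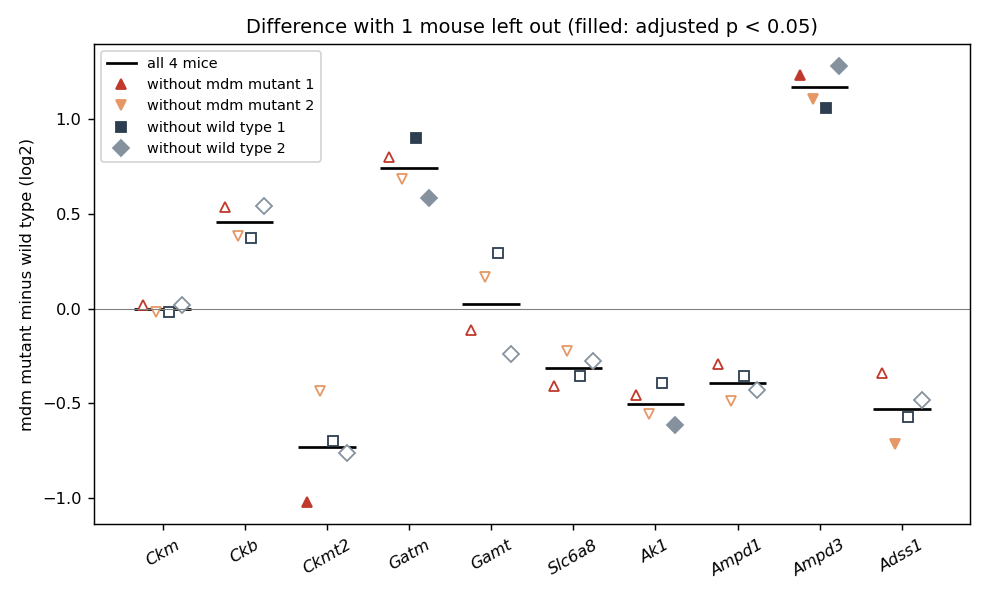
Difference between mdm mutant and wild type (log2, y axis) of each enzyme with all 4 mice (bars) and with each mouse left out (symbols, filled where the adjusted p was under 0.05). Ampd3 stays between 1.06 and 1.28 with all symbols filled, Ckmt2 spreads from −1.02 to −0.44, and Gamt lies on both sides of 0.

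Around these enzymes, 64 other genes of nucleotide metabolism and energy transfer were listed and 55 were measured. Of these 5 rose, 6 fell and 44 did not pass, so that 20.0% passed beside 12.8% of the array. The median difference was −0.05. With 1 mouse left out, 3 of the 11 kept their call in every setting (Ak3, Hprt and Adk). Of the 12 measured genes of purine synthesis from small precursors 0 passed, with differences between −0.14 and 0.20.

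Salvage genes had both the largest rise and the largest fall among the called genes of those lists. Hprt, which recovers hypoxanthine and guanine as IMP and GMP, read 9.86 and 9.83 in the mdm mutant mice, against 9.07 and 8.998 in the wild type mice. It rose by 0.81 ± 0.05 (adjusted p = 0.00423). Adk, which phosphorylates adenosine to AMP, read 9.71 and 9.65 in mdm mutant mice, against 10.37 and 10.48 in wild type mice. It fell by 0.74 on the log2 scale (−0.74 ± 0.06, adjusted p = 0.00629). The other 3 salvage genes did not pass. Aprt, the salvage enzyme for adenine, stood at 0.09 ± 0.08, and the nucleoside kinases Dck and Dguok stood at 0.24 ± 0.09 and −0.18 ± 0.08.

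Among 13 nucleotide breakdown genes 2 rose and 1 fell. The cytosolic nucleotidase Nt5c2, which favours IMP and GMP, read 7.61 and 7.48 in mdm mutant mice, against 6.90 and 7.14 in wild type mice, and rose by 0.53 ± 0.10 (adjusted p = 0.0291). Nt5c, which acts on deoxynucleotides, read 8.20 and 8.42 in mdm mutant mice, against 7.89 and 7.94 in wild type mice, and rose by 0.40 ± 0.08 (adjusted p = 0.0416). The deaminase-like gene Adal read 7.50 and 7.47 in mdm mutant mice, against 7.87 and 7.78 in wild type mice, and fell (−0.34 ± 0.06, adjusted p = 0.0239). With a mouse left out, Nt5c kept its call in 1 of 4 settings (without mdm mutant 1), Nt5c2 in 1 (without wild type 2) and Adal in 0. Pnp, which splits inosine to hypoxanthine, the substrate of Hprt, stood at 0.63 ± 0.15 and did not pass (adjusted p = 0.0550).

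Among 6 AMP-activated protein kinase subunits, the energy sensor that binds AMP, Prkab2 fell (−0.50 ± 0.06, adjusted p = 0.0123) and the others did not pass. It read 9.41 and 9.48 in mdm mutant mice, against 9.90 and 9.998 in wild type mice, and its call was lost without wild type 2. Of 6 nucleoside diphosphate kinase genes 1 fell, Nme6, with 8.20 and 8.22 in mdm mutant mice, against 8.62 and 8.80 in wild type mice (−0.50 ± 0.07, adjusted p = 0.0180). Its call held only without wild type 1 among the settings with a mouse left out. Of the adenine nucleotide carriers that pass ATP out of mitochondria, Slc25a5, the widely expressed form, read 12.08 and 12.21 in mdm mutant mice, against 11.54 and 11.26 in wild type mice. It rose by 0.75 ± 0.11 (adjusted p = 0.0167), a call lost without mdm mutant 2. Slc25a4, the form of heart and skeletal muscle, read 13.97 and 13.97 in mdm mutant mice, against 14.12 and 14.12 in wild type mice. The difference of −0.15 ± 0.05 did not pass (adjusted p = 0.108). Values follow rank and were the same within each group, so this ± comes from limma's moderation of the variance alone. A change of Slc25a4 that left its rank in place would not appear. The within-mouse ratio of Slc25a5 over Slc25a4 was higher by 0.90 in the mutants.

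**Figure D4:**
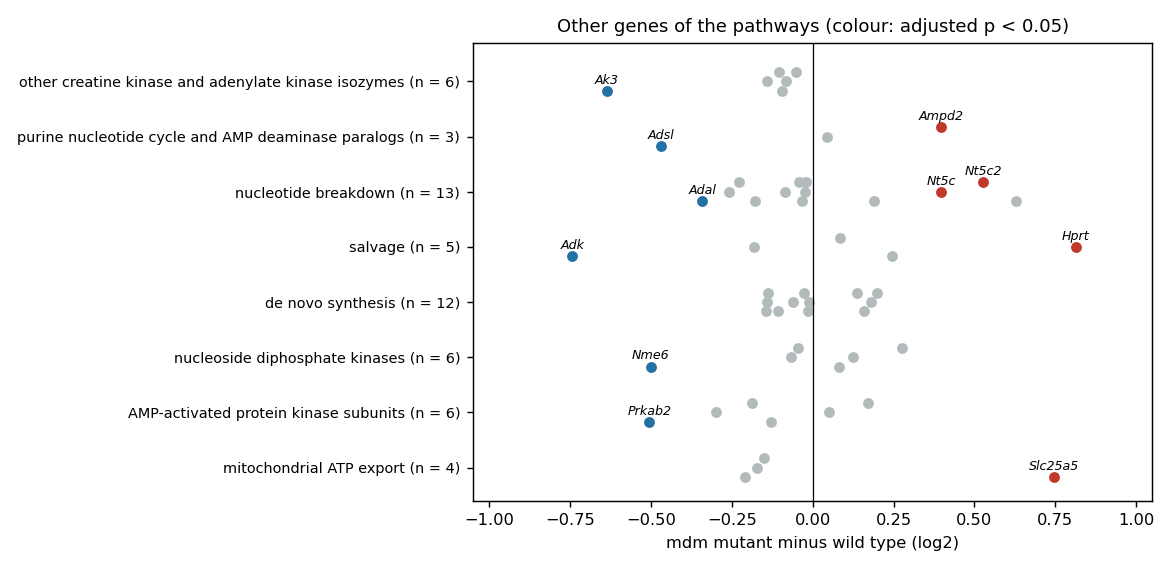
Difference between mdm mutant and wild type (log2, x axis) of the 55 other pathway genes, 1 point per gene, in rows by list. Coloured and named points passed at an adjusted p under 0.05. Hprt at 0.81 and Adk at −0.74 lie at the ends of the same row, and all 12 points of de novo synthesis are uncoloured.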

How the data were processed

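RNA of 4 mouse quadriceps was hybridised as biotin-labelled cRNA to arrays of Affymetrix, as the labels' protocols state. The deposited values are log2 expression values that the authors made with RMA, per the submitters' processing notes. For the array model, the probe set definition and the RMA version, the sources used here give nothing. When sorted, the 4 columns were the same to within 1e-06 at all but 26 of 16553 ranks, so a value is set by its rank and a shift of most genes in 1 direction would not be visible. The number of arrays, 2 per group, limits the precision.

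After removal of 61 control probe sets, 16492 entered the linear model of limma 3.58.1 (R 4.3.3), with eBayes at its defaults and no covariates. Benjamini-Hochberg adjustment ran over all of them, and the threshold was an adjusted p under 0.05. Symbols came from the platform annotation, updated by Entrez number from a RefSeq table of assembly GRCm38.p6, and a gene with several probe sets was represented by the one with the highest mean. The summed level of a marker list is the log2 of the sum of its unlogged values. Groups came from the genotype label. The fit was tested on simulated data. Named are all 10 enzymes, pathway genes past the test and paralogs of the enzymes, with Trim63, Fbxo32 and other genes outside this rule named after their values were seen. The enzymes, the pathway and marker lists and the alternatives were chosen with earlier results of these data known. Alternatives were other variance models, scalings, a filter on dim probe sets, other thresholds, the mean over probe sets, and each mouse left out. Where 11 alternatives are counted for a gene, the other thresholds are left out and the threshold stays at 0.05. Plots used Python 3.11.15 and matplotlib 3.10.9.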

Additional observations from a re-analysis of the deposited data

How the results depend on the processing

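The direction of Ampd3, Gatm, Ckb, Ak1, Ampd1, Ckmt2, Adss1 and Slc6a8 was the same under all alternatives run. For most alternatives this was fixed in advance. The groups of these enzymes did not overlap, so leaving out 1 mouse could not change the sign. Variance models, thresholds, the filter on dim probe sets and the mean over probe sets leave their differences as they are. Median centring and repeated quantile normalization barely moved the differences, since the arrays already shared nearly all values by rank. Only centring on the hybridization controls could have changed these directions. It added the same amount to every difference, as in Ckm, which went from 0.00 to 0.11. Gamt, which did not pass, changed sign without mdm mutant 1 (−0.11) and without wild type 2 (−0.24), its values with a mouse left out running from −0.24 to 0.29. Without variance moderation 0 enzymes rose and 0 fell, 1 of the other pathway genes passed and 1 probe set passed on the whole array, while 3286 had an unadjusted p under 0.05 in limma's linear model. That 1 probe set was Slc25a4, whose values were identical within each group, so its spread was 0. With each array centred on its 18 hybridization controls, which put the array-wide median difference at 0.09 in place of −0.02, 1 enzyme fell, 18 other pathway genes passed and 3432 probe sets passed in place of 2115. At an adjusted p under 0.01, 1 enzyme rose, 0 fell, 3 other pathway genes and 304 probe sets passed. At an adjusted p under 0.10, 5 enzymes fell, 18 other pathway genes and 3719 probe sets passed. With 1 mouse left out, the enzymes that rose numbered 1 to 2 and those that fell 0 to 1. The other pathway genes that passed numbered 4 to 8 and all probe sets 490 to 1182. Where fewer mice enter the fit, a lone mouse is assumed to vary like the other group. Fewer samples also give less precision, but the number of calls differed with the mouse left out. The cause of these shifts was not tested. No paired analysis was possible because the labels give no numbers that pair the mice.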
